A study of Mus musculus with 6 samples.

Results

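The chemokine system of the mouse liver was examined as the set of all genes whose symbols begin with Ccl, Cxcl, Ccr or Cxcr and a digit, or with Cx3c, Xcl, Xcr or Ackr. This rule, which uses names and no measured value, gave the 61 genes reported here, of 21362 in the expression table, namely 39 ligands and 22 receptors. The ligands were 24 CC, 13 CXC, 1 CX3C and 1 XC chemokine, and the receptors were 18 conventional and 4 atypical ones. RNA-seq was measured in whole livers of 6 male Mettl14f/f mice, which carry a floxed allele of Mettl14, the RNA-binding partner of METTL3 in the writer of the RNA mark m6A. All mice were put on a high-fat diet (HFD) at 8 weeks of age, received a vector after 10 weeks of the diet and were examined 8 weeks later. Livers labelled with the vector AAV-TBG-Cre, written AAV8-TBG-Cre here (genotype label METTL14 KO, n = 3) received Cre under the TBG promoter, whose activity is limited to hepatocytes. Livers labelled AAV-TBG-GFP, here AAV8-TBG-GFP (genotype label WT, n = 3) carried the same floxed allele, diet and virus type with GFP in place of Cre, so no liver without the floxed allele or on a regular diet entered the comparison. Cells other than hepatocytes were not targeted by the promoter, and the RNA of all liver cells was pooled in each library.

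Chemokines are small secreted proteins that attract leukocytes by binding receptors that signal through G proteins of the Gi class. The atypical receptors bind ligands without that signal, and several of them take ligands up and degrade them. In the liver, Kupffer cells, sinusoidal endothelium, stellate cells, bile duct epithelium and hepatocytes all make chemokines, and the receptors are carried mostly by immune cells. CCL2 with CCR2 and CX3CL1 with CX3CR1 are best known for their roles in monocytes and macrophages, CXCL1 and its relatives with CXCR2 for neutrophils, and CXCL9 to CXCL11 with CXCR3 for T and NK cells.

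The 6 libraries held between 20356440 and 21010508 expected counts. The targeted gene, Mettl14, read 124, 126 and 111 counts in the AAV8-TBG-GFP livers (replicates 1 to 3) and 104, 131 and 101 in the AAV8-TBG-Cre livers. The groups overlapped, and the log2 fold change of -0.29 ± 0.15 (SE) did not pass the test (edgeR, adjusted p = 0.337), so Mettl14 mRNA did not separate the labelled groups and every direction below is between livers as labelled. The labels do not give the deleted exons, so the gene total may include reads outside them, and it includes cells other than hepatocytes. For male livers of this model, at an earlier time after the vector, the paper reports less METTL14 protein and less total m6A. Hepatocyte markers reached a summed 78263 to 110739 CPM (counts scaled by library size and TMM factors) in each library. Short library names are carried by AAV8-TBG-Cre replicate 1 and by the first 2 AAV8-TBG-GFP replicates and long ones by the other 3 livers, and the labels do not say what this marks. AAV8-TBG-Cre replicate 2 was often the highest library for the chemokine system. It had the highest CPM of the 6 libraries for 23.3% of all 13431 genes tested and for 14 of the 31 chemokine system genes tested. It was also highest for all 10 that passed the test as higher, but genes picked as higher tend to peak in an AAV8-TBG-Cre library. The share among all genes that passed as higher was not computed. Values without this library therefore stand beside the members whose call they change.

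Of the 61 genes, 3 (Ccl1, Ccl21c and Ccr8) had no count in any library, 27 had too few counts to be tested, and 31 (21 ligands, 10 receptors) were tested in the fit of all 13431 genes. A gene passed the test when its unadjusted p was under 0.05 and its fold change 1.2 or more, the threshold of the study. By this rule 10 chemokine system genes were higher in AAV8-TBG-Cre livers and 2 were lower. The background of all genes tested was 12.0% higher and 8.41% lower. The 10 were 6 ligands (Ccl2, Ccl5, Ccl6, Cx3cl1, Cxcl14 and Cxcl16) and 4 receptors (Ccr2, Ccr7, Cx3cr1 and Cxcr4), and the 2 were the ligands Ccl25 and Cxcl13. Log2 fold changes of the 10 lay between 0.95 and 1.91. The estimate was positive for 21 of the 31 genes and negative for 10, and the median log2 fold change was 0.29 beside -0.006 over all genes. Every AAV8-TBG-Cre library lay above every AAV8-TBG-GFP library for 9 of the 31 genes, against 14.0% of all genes, and below it for 3 (Ccl25, Cxcl13 and Cxcl9), against 13.0%. In bulk RNA, fewer cells of a type and less RNA per cell cannot be told apart, and this holds for every value here.

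None of the 31 genes passed a Benjamini-Hochberg adjusted p under 0.05 in edgeR's quasi-likelihood test, in which 0.931% of all genes did, while the 12 genes above were those with an unadjusted p under 0.05. The smallest adjusted p was 0.0757, that of Ccl6. DESeq2 called 9 of the 46 members to which it gave an adjusted p, against 7.44% of all genes, and limma on log2 FPKM called 0 in each of its 3 settings. The 9 were Ccl2, Ccl6, Ccr2, Cx3cl1, Cx3cr1, Cxcl13, Cxcl14, Cxcl16 and Cxcr4. Without AAV8-TBG-Cre replicate 2, 10 genes passed as higher by unadjusted p, against 8.19% of all genes, and 9 of these were among the 10 of the full fit, while Ccl5 was lost and Ccl9 was gained. In the same fit 3 genes passed as lower, against 5.85% of all genes, these being Ccl25, Cxcl13 and Ackr3. Without AAV8-TBG-Cre replicate 1, 3 of the 35 members then tested passed by adjusted p in edgeR (Cx3cr1, Cxcl16 and Cxcr4), against 6.78% of all genes. Log2 fold changes without AAV8-TBG-Cre replicate 2 were 1.58 for Cx3cl1, 0.95 for Ccr2, 0.73 for Cxcl14 and 1.17 for Ccr7 in edgeR, all past the threshold. More of the calls over all genes were higher than lower in every setting, but the share differed with the measure. On the deposited FPKM, which carry no TMM factor, limma gave a median log2 fold change of 0.112 over all genes and 83.7% of its calls were higher, against 58.9% in the edgeR fit. That fit, which differs from edgeR in unit, model and filter, called 10 of the 29 members it could test higher, against 15.5% of all genes, and 1, Cxcl13, lower, against 3.01%, and the estimates of Cxcl1 and Cxcl10 turned positive. A gene could enter the test through the group in which it was higher. Among the 31 genes, 26 reached the filter's level in all 3 AAV8-TBG-GFP libraries, 4 in 1 or 2 of them and 1, Ccr7, in none. Cxcl13 reached it in no AAV8-TBG-Cre library.

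**Figure D1:**
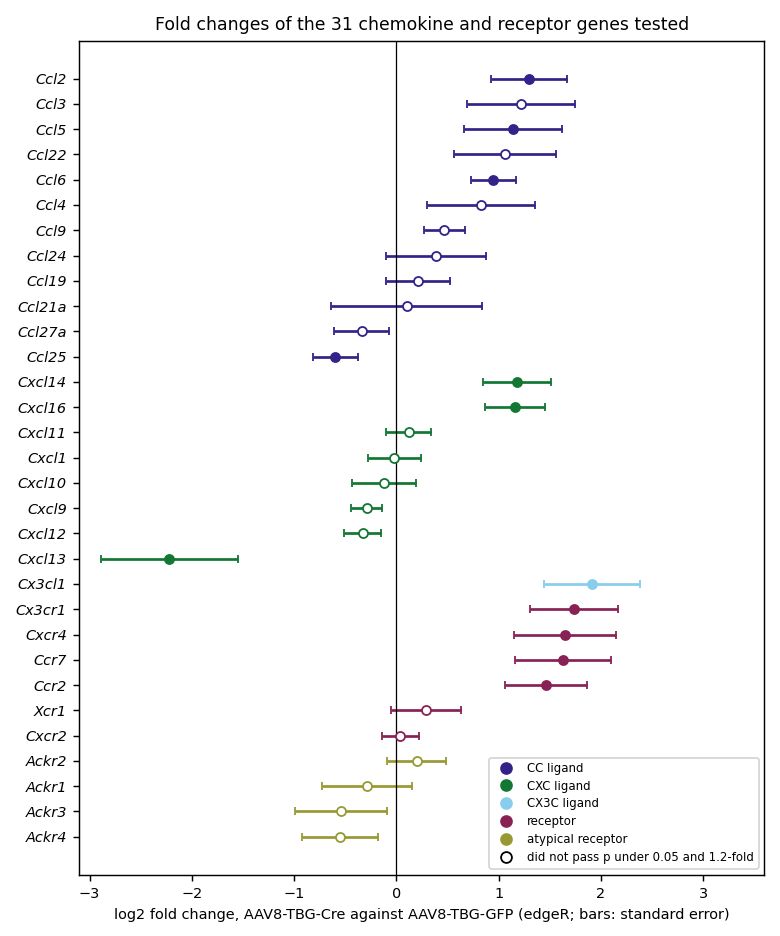
Log2 fold change of AAV8-TBG-Cre over AAV8-TBG-GFP livers (n = 3 each, edgeR) for the 31 genes tested, with bars of 1 standard error and filled points for genes that passed an unadjusted p under 0.05 and a fold of 1.2. The 4 filled receptors and 6 filled ligands lie between 0.95 and 1.91, the 4 atypical receptors are all open, and Cxcl13 at -2.22 is the lowest.

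Per transcript length, the ligand RNA of these livers was dominated by Cxcl12, the ligand of CXCR4 and of the atypical receptor ACKR3, which holds blood cell precursors in their niches. Its FPKM (the deposited unit, which corrects for transcript length and library size) was 111, 87.9 and 122 in AAV8-TBG-GFP livers and 81.9, 107 and 105 in AAV8-TBG-Cre livers. The groups overlapped. Cxcl12 made up 59.3%, 55.9% and 65.3% of the summed FPKM of all ligands in AAV8-TBG-GFP livers and 46.2%, 45.8% and 57.3% in AAV8-TBG-Cre livers. The other ligands together had 76.4, 69.3 and 64.7 FPKM in AAV8-TBG-GFP livers and 95.5, 127 and 78.7 in AAV8-TBG-Cre livers. The summed FPKM of all receptors was 7.70, 7.64 and 7.03 in AAV8-TBG-GFP livers and 9.51, 19.4 and 11.1 in AAV8-TBG-Cre livers. For these last 2 sums every AAV8-TBG-Cre liver lay above every AAV8-TBG-GFP liver, the ligands narrowly, at 78.7 against 76.4 where nearest. These FPKM carry no TMM factor, and in limma on log2(FPKM + 1) the median log2 fold change over all genes was 0.112.

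After Cxcl12, the ligands of highest mean FPKM over the 6 libraries were Cxcl1 at 12.9, Ccl9 at 11.7, Ccl6 at 10.9 and Ccl27a at 8.48. The ranges of these 4 over the libraries overlapped with one another, so their order is not firm, while no library of any of them reached the lowest Cxcl12 value of 81.9 FPKM. Of the receptors, the highest means were those of Cxcr2 (1.63 FPKM), Cxcr4 (1.44), Cx3cr1 (1.34), Ackr2 (1.27) and Ccr2 (1.07), and these too overlapped. In AAV8-TBG-GFP livers alone Cxcr2 led at 1.51 ± 0.162 FPKM (SD, n = 3) and Ackr2 followed at 1.12 ± 0.307. In AAV8-TBG-Cre livers the highest means were those of Cxcr4 (2.26 ± 1.55) and Cx3cr1 (2.14 ± 1.44), whose spreads overlap with the 1.75 ± 0.180 of Cxcr2.

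**Figure D2:**
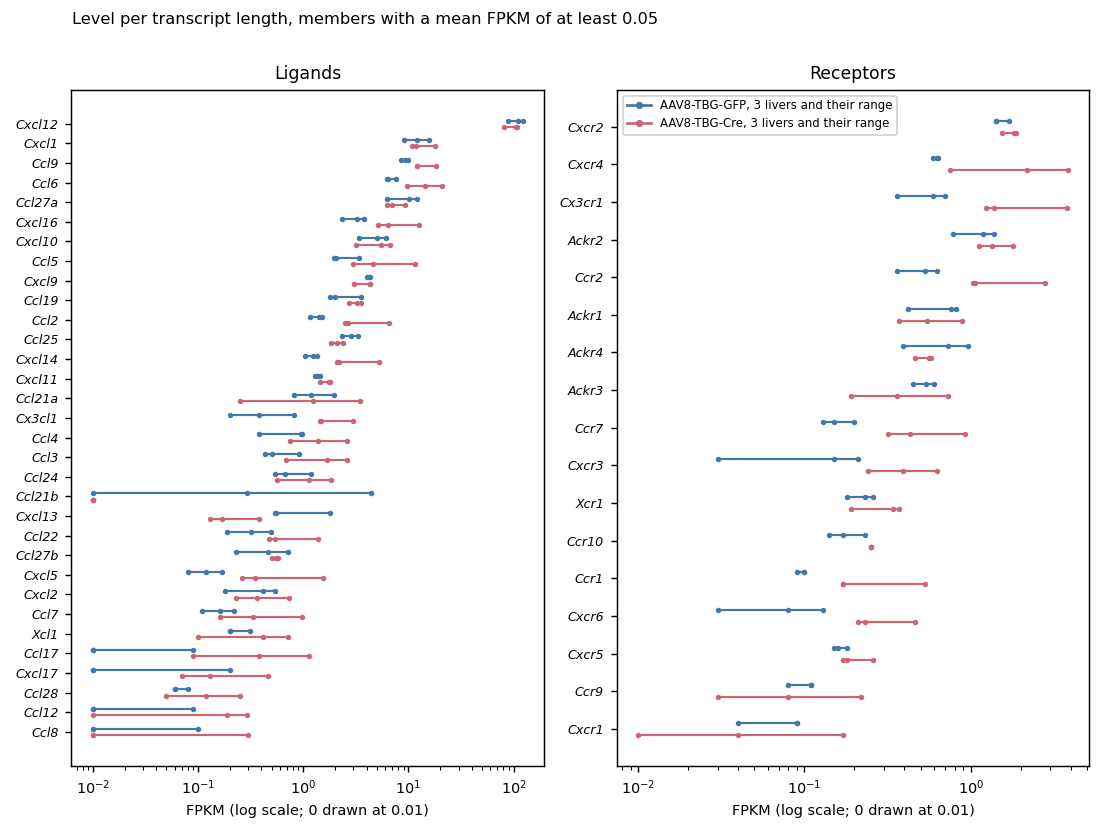
FPKM on a log axis of each ligand (left) and receptor (right) with a mean of at least 0.05 FPKM, as 3 points and their range for each vector, ordered by the mean over 6 livers. Cxcl12 sits alone at 81.9 to 122 FPKM, the other ligands reach 21.0 at most, and no receptor passes 3.85.

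Cx3cl1, or fractalkine, is made as a membrane-bound protein on a mucin stalk and can be shed as a soluble attractant. It had the largest increase of the ligands tested. Its CPM was 2.64, 1.28 and 0.681 in AAV8-TBG-GFP livers and 4.49, 8.05 and 4.77 in AAV8-TBG-Cre livers. Every AAV8-TBG-Cre liver was above every AAV8-TBG-GFP liver, and the AAV8-TBG-GFP livers themselves spread widely. The log2 fold change was 1.91 ± 0.47 (SE), with an adjusted p = 0.0854 in edgeR.

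Its receptor gene, Cx3cr1, carried by monocytes and tissue macrophages, rose alongside. It read 2.74, 1.43 and 2.46 CPM in AAV8-TBG-GFP livers and 4.58, 12.2 and 5.34 in AAV8-TBG-Cre livers. The groups did not overlap, and AAV8-TBG-Cre replicate 2 stood well above the rest. Its log2 fold change was 1.74 ± 0.43 (edgeR, adjusted p = 0.0858), and without AAV8-TBG-Cre replicate 2 it was 1.16 and still passed.

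Ccl2, the main attractant of inflammatory monocytes, was at 1.22, 1.17 and 0.995 CPM in AAV8-TBG-GFP livers and at 2.05, 4.31 and 1.97 in AAV8-TBG-Cre livers. The control livers lay close together, and all 3 AAV8-TBG-Cre livers exceeded them. This gave a log2 fold change of 1.30 ± 0.37 (edgeR, adjusted p = 0.118) and 0.83 without AAV8-TBG-Cre replicate 2, when it still passed. The gene of its receptor, Ccr2, had 1.98, 1.38 and 2.51 CPM in AAV8-TBG-GFP livers and 3.77, 8.58 and 3.80 in AAV8-TBG-Cre livers. Again the groups were separate, and AAV8-TBG-Cre replicates 1 and 3 were nearly equal. The log2 fold change of Ccr2 was 1.46 ± 0.40 (edgeR, adjusted p = 0.102). The other CCR2 ligands on the list, Ccl7 and Ccl12, were too scarce to test, at 4, 2 and 3 counts of Ccl7 in AAV8-TBG-GFP livers against 6, 18 and 3, and at 0, 0 and 1 counts of Ccl12 against 3, 2 and 0.

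Ccl6 and Ccl9 encode CC chemokines of rodents that act on myeloid cells through CCR1, and they are neighbours on chromosome 11. Ccl6 had 187, 225 and 188 counts in AAV8-TBG-GFP livers and 419, 619 and 291 in AAV8-TBG-Cre livers, or 10.3 ± 1.06 against 19.8 ± 5.71 CPM (SD, n = 3), without overlap. It had the smallest standard error of the 10 increases, with a log2 fold change of 0.95 ± 0.22 (edgeR, adjusted p = 0.0757) that stayed between 0.72 and 1.14 whichever library was left out. Ccl9 read 29.3, 27.0 and 32.6 CPM against 54.4, 31.3 and 37.3, where AAV8-TBG-Cre replicate 2 was inside the range of the AAV8-TBG-GFP livers. Its log2 fold change of 0.47 ± 0.20 missed the threshold (edgeR, adjusted p = 0.24), although it passed in each of the 9 other settings tried on all libraries. With a library left out it passed in 1 of 6 fits, that without AAV8-TBG-Cre replicate 2 (0.63), and the estimate was 0.21 without AAV8-TBG-Cre replicate 1. Counts of their receptor gene, Ccr1, were 6, 5 and 6 against 10, 31 and 10, below the filter.

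Ccl5 encodes an attractant of T cells and monocytes that binds CCR1 and CCR3 among other receptors. It read 1.12, 1.99 and 1.26 CPM in AAV8-TBG-GFP livers and 1.62, 5.42 and 2.55 in AAV8-TBG-Cre livers, and AAV8-TBG-Cre replicate 1 fell within the control range. Its log2 fold change was 1.14 ± 0.48 (edgeR, adjusted p = 0.227) and was 0.51 without AAV8-TBG-Cre replicate 2, when the call was lost. The call was also lost without AAV8-TBG-GFP replicate 1 (0.97), AAV8-TBG-GFP replicate 3 (1.04) or AAV8-TBG-Cre replicate 3 (1.28).

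Ccl3 and Ccl4, which encode the macrophage inflammatory proteins and lie near Ccl5 on chromosome 11, had positive estimates that did not pass. Ccl3 read 0.407, 0.357 and 0.785 CPM in AAV8-TBG-GFP livers and 0.525, 1.73 and 1.35 in AAV8-TBG-Cre livers (log2 fold change 1.22 ± 0.53, edgeR adjusted p = 0.243). Ccl4 read 0.254, 0.663 and 0.681 CPM against 0.477, 1.44 and 0.915 (0.83 ± 0.53, edgeR adjusted p = 0.423). The groups of both genes overlapped. Ccl3 passed without AAV8-TBG-GFP replicate 3 (1.63) and without AAV8-TBG-Cre replicate 1 (1.57), while Ccl4 did not pass with any library left out and was at 0.38 without AAV8-TBG-Cre replicate 2. Their positions overlap in the RefSeq annotation, at chr11:83647843-83649378 and chr11:83648624-83664683, and all expected counts of both were whole numbers.

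Cxcl16 encodes a transmembrane chemokine that also binds oxidized lipoproteins and whose receptor, CXCR6, marks liver-resident T and NKT cells. It read 9.66, 8.42 and 6.33 CPM in AAV8-TBG-GFP livers and 12.3, 26.2 and 15.8 in AAV8-TBG-Cre livers, with no overlap. In edgeR its log2 fold change was 1.16 ± 0.29 (edgeR, adjusted p = 0.0882) and 0.79 without AAV8-TBG-Cre replicate 2, still past the threshold. Cxcr6 had 3, 5 and 1 counts in AAV8-TBG-GFP livers and 8, 18 and 9 in AAV8-TBG-Cre livers, too few to enter the test, and again without overlap in the counts.

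Cxcl14, a CXC chemokine made largely by epithelia, read 2.59, 2.40 and 2.09 CPM in AAV8-TBG-GFP livers and 3.77, 8.17 and 4.09 in AAV8-TBG-Cre livers. The control livers differed little and lay below all 3 AAV8-TBG-Cre livers. Its log2 fold change was 1.18 ± 0.33 (edgeR, adjusted p = 0.111). No receptor is paired with it here.

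Cxcr4 is the receptor of CXCL12 and is carried by most leukocytes. It read 1.12, 1.22 and 1.26 CPM in AAV8-TBG-GFP livers and 1.34, 5.96 and 3.99 in AAV8-TBG-Cre livers. AAV8-TBG-Cre replicate 1 was barely above the controls, and the other 2 were far above them. Cxcr4 thus had a log2 fold change of 1.65 ± 0.50 (edgeR, adjusted p = 0.132). Without AAV8-TBG-Cre replicate 2 it was 1.14 and still passed. Its ligand Cxcl12 went the other way in estimate but did not pass, at 308, 248 and 369 CPM against 211, 241 and 285 (log2 fold change -0.33 ± 0.18, edgeR adjusted p = 0.359), and it passed as lower without AAV8-TBG-GFP replicate 2 (-0.46). Ackr3, which scavenges CXCL12, read 0.966, 1.17 and 1.36 CPM against 0.716, 1.27 and 0.385 (-0.54 ± 0.45, edgeR adjusted p = 0.536). Without AAV8-TBG-Cre replicate 2, its highest AAV8-TBG-Cre library, Ackr3 passed as lower at -1.08. Cxcl11, a further ligand of ACKR3, read 2.13, 2.30 and 2.51 CPM against 2.29, 2.42 and 2.84 (0.12 ± 0.22, edgeR adjusted p = 0.796), and the reference annotation lists it as a transcribed pseudogene.

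Ccr7, which guides dendritic cells and naive T cells to lymph nodes, was the scarcest receptor tested, with 6, 5 and 8 counts in AAV8-TBG-GFP livers and 13, 38 and 18 in AAV8-TBG-Cre livers. In CPM this was 0.305, 0.255 and 0.419 against 0.620, 1.56 and 0.866, without overlap. The log2 fold change was 1.63 ± 0.47 (edgeR, adjusted p = 0.12), and Ccr7 was tested only because of its counts in AAV8-TBG-Cre livers. Neither of its ligands passed. Ccl19 was at 2.54, 1.48 and 1.36 CPM against 2.20, 2.09 and 1.93 (0.21 ± 0.31, edgeR adjusted p = 0.747). Ccl21a was at 1.73, 0.714 and 1.10 CPM against 0.191, 2.51 and 1.06, and AAV8-TBG-Cre livers held both its lowest and its highest value (0.10 ± 0.74, edgeR adjusted p = 0.953). Its estimate turned to -0.92 without AAV8-TBG-Cre replicate 2 and did not pass. Ccl21a, Ccl21b and Ccl21c are near-identical copies whose reads may have been split, and Ccl21b had 73, 0 and 5 counts in AAV8-TBG-GFP livers and 0 in every AAV8-TBG-Cre liver.

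**Figure D3:**
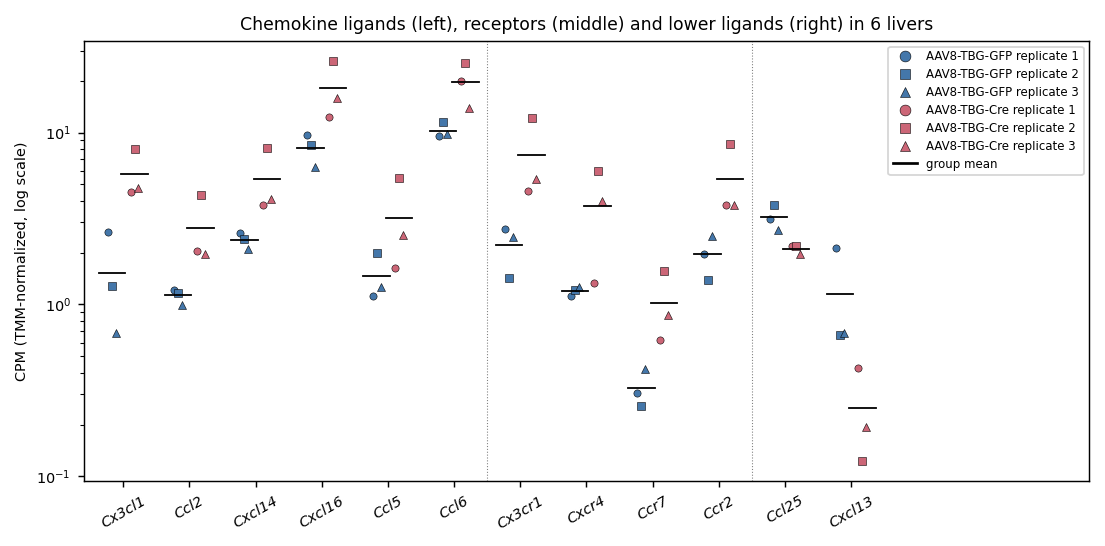
CPM (TMM-normalized, log axis) in each of the 6 livers for the 10 genes that passed as higher (ligands left, receptors middle) and the 2 that passed as lower (right), with bars at the group means. AAV8-TBG-Cre replicate 2, the red square, is the highest point for each of the 10, and Ccl5 is the only gene of the 12 whose groups overlap.

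Cxcl13, the B cell attractant of lymphoid follicles, passed as lower. It had 42, 13 and 13 counts in AAV8-TBG-GFP livers and 9, 3 and 4 in AAV8-TBG-Cre livers, or 2.13, 0.663 and 0.681 CPM against 0.429, 0.123 and 0.193. Every AAV8-TBG-Cre liver was below every AAV8-TBG-GFP liver, and AAV8-TBG-GFP replicate 1 stood high on its own. For Cxcl13 the log2 fold change was -2.22 ± 0.67 (edgeR, adjusted p = 0.128) and -1.44 without AAV8-TBG-GFP replicate 1, when it no longer passed. Its receptor gene Cxcr5 was below the filter at 8, 10 and 9 counts against 9, 14 and 10.

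Ccl25, known from thymus and small intestine, read 3.15, 3.77 and 2.72 CPM in AAV8-TBG-GFP livers and 2.20, 2.18 and 1.97 in AAV8-TBG-Cre livers, with no overlap. Ccl25 had a log2 fold change of -0.60 ± 0.22 (edgeR, adjusted p = 0.187). The call was lost without AAV8-TBG-GFP replicate 1 or 2 and without AAV8-TBG-Cre replicate 1 or 3, with log2 fold changes between -0.63 and -0.47. Its receptor gene Ccr9 had 7, 10 and 10 counts against 3, 20 and 7.

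The neutrophil axis showed no separation in the genes abundant enough to test. Cxcl1 read 11.7, 15.5 and 9.48 CPM in AAV8-TBG-GFP livers and 16.5, 9.57 and 10.3 in AAV8-TBG-Cre livers (log2 fold change -0.02 ± 0.26, edgeR adjusted p = 0.98). Cxcr2 read 4.52, 4.59 and 5.71 CPM against 5.63, 4.76 and 4.81 (0.04 ± 0.18, edgeR adjusted p = 0.93). Both genes overlapped between the groups almost fully. Of the other CXCR2 ligands, Cxcl2 had 9, 4 and 12 counts against 5, 16 and 8, and Cxcl3 had 1 count in all. Cxcl5 had 3, 4 and 6 counts in AAV8-TBG-GFP livers against 12, 53 and 9, and most of its AAV8-TBG-Cre counts came from replicate 2.

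Among the remaining genes tested, Ccl27a read 6.35, 3.62 and 5.97 CPM against 5.01, 3.33 and 4.28 (-0.34 ± 0.27, edgeR adjusted p = 0.52), and shares its sequence largely with Ccl27b. The gene of its receptor, Ccr10, had 8, 5 and 6 counts in AAV8-TBG-GFP livers and 9 in each AAV8-TBG-Cre liver. Cxcl9, a T cell attractant induced by interferon, was named after its values were seen, since its groups did not overlap. It read 12.8, 12.5 and 13.9 CPM against 12.3, 10.7 and 8.95, with a log2 fold change of -0.29 ± 0.15 that missed the threshold (edgeR, adjusted p = 0.3) and passed without AAV8-TBG-Cre replicate 1 (-0.41). Ccl22, Ccl24, Cxcl10 and the receptor Xcr1 did not pass either, with log2 fold changes between -0.12 and 1.06. The highest of these, Ccl22, passed without AAV8-TBG-Cre replicate 3 (1.28) and was at 0.52 without replicate 2.

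None of the 4 atypical receptors passed with all libraries. Ackr2, which degrades inflammatory CC chemokines such as CCL2 and CCL5, read 4.17, 3.72 and 2.51 CPM in AAV8-TBG-GFP livers and 3.24, 3.37 and 5.34 in AAV8-TBG-Cre livers (0.20 ± 0.29, edgeR adjusted p = 0.743). The groups overlapped for all 4. Log2 fold changes of Ackr1, Ackr3 and Ackr4 lay between -0.55 and -0.29. As given above, Ackr3 passed as lower without AAV8-TBG-Cre replicate 2, and Ackr4 passed as lower without AAV8-TBG-GFP replicate 3 (-0.84). Of the 6 conventional receptors tested, 4 passed as higher and 2, Cxcr2 and Xcr1, did not pass. Whether the conventional and the atypical receptors differ in response was not tested.

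The 27 members below the filter had between 1 and 87 counts in all 6 libraries together, and 9 of them had 5 or fewer. For 5 of the 27 every AAV8-TBG-Cre count was above every AAV8-TBG-GFP count, against 8.26% of all 4988 genes below the filter, and these were Cxcl5, Ccr1, Cxcr6 and Ccr10, given above, and Cxcr3. These are counts not scaled by library, and in CPM Ccr10 overlapped, at 0.407 in AAV8-TBG-GFP replicate 1 against 0.370 in AAV8-TBG-Cre replicate 2. Cxcr3, the receptor gene of the interferon-induced ligands, had 1, 7 and 5 counts in AAV8-TBG-GFP livers and 8, 21 and 13 in AAV8-TBG-Cre livers. Ccl17, a ligand of CCR4 on T cells, had 0, 1 and 0 counts against 4, 12 and 1, and Ccl28, an epithelial ligand of CCR10, had 5, 6 and 5 against 19, 9 and 4. At such counts a difference smaller than several counts per library was not detectable, and intervals from counts alone would not cover the spread between mice. The other 18 were Ccl8, Ccl11, Ccl20, Ccl26, Ccl27b, Cxcl15, Cxcl17, Xcl1, Ccr1l1, Ccr3, Ccr4, Ccr6 and Cxcr1, together with Ccl7, Ccl12, Ccl21b, Cxcl2 and Cxcl3, of which Ccl21b had 78 counts, Cxcl2 54 and Ccl27b 42, and the rest 36 or fewer. Ccr9 and Cxcr5, given beside their ligands, complete the 27.

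**Figure D4:**
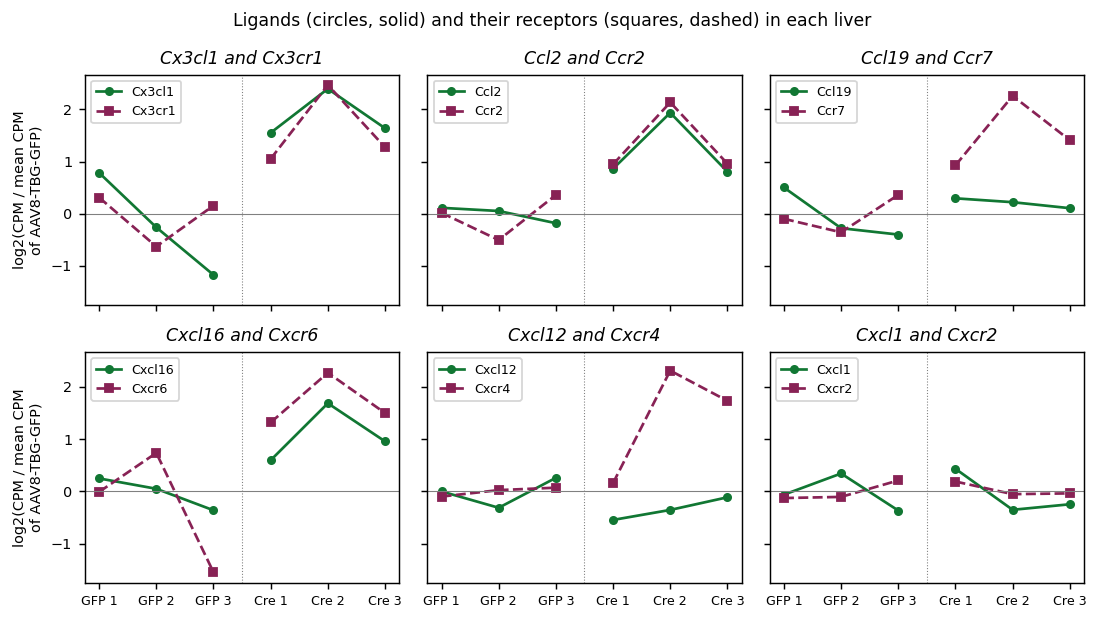
Log2 of CPM over the mean CPM of the 3 AAV8-TBG-GFP livers, for 6 ligands (green circles, solid lines) and their receptors (purple squares, dashed lines) in each of the 6 livers, the lines only joining points of the same vector. For Cx3cl1 with Cx3cr1, Ccl2 with Ccr2 and Cxcl16 with Cxcr6 both genes peak in AAV8-TBG-Cre replicate 2. Ccr7 and Cxcr4 peak there while Ccl19 and Cxcl12, the ligands drawn with them, do not, and Cxcl12 lies below its control mean in all 3 AAV8-TBG-Cre livers. Ccl21a, a further ligand of CCR7, is not drawn and was highest in AAV8-TBG-Cre replicate 2 (2.51 CPM).

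Many members sit in clusters on the genome, taken here as 3 or more members with gaps under 1 Mb (GRCm38.p6). The receptor cluster at chr9:123767211-124109140 holds 7 of the genes, of which 2 were tested and 1, Ccr2, passed as higher. The cluster at chr11:83525778-83664683 holds Ccl5, Ccl9, Ccl6, Ccl3 and Ccl4, all tested with positive estimates, of which Ccl5 and Ccl6 passed. In the cluster at chr11:82035577-82179812, with 6 members, Ccl2 was the only gene tested and it passed. At chr8:94745684-94812038, Cx3cl1 lies between Ccl22 and Ccl17, and it alone passed of the 2 tested. None passed in the cluster of Cxcl9, Cxcl10 and Cxcl11 at chr5:92321331-92363296 (3 tested), in that of Cxcl1 and its relatives at chr5:90759298-90905938 (1 tested of 5) or in that of Ccl19, the Ccl21 and the Ccl27 genes at chr4:41769467-42773991 (3 tested of 5). Genes of a cluster are not independent of one another.

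The promoters of chemokine genes are known for sites of NF-kB, the factor that cytokines and bacterial products activate in many cells, and for interferon-stimulated response elements. Windows from 250 bases before to 50 bases after the start (RefSeq, GRCm38.p6) were at hand for 46 of the 61 members. The NF-kB consensus of 10 bases was searched on both strands and was found in 10 of the 46 windows (21.7%), against 5.14% of the windows of all 27025 genes. These 10 were Ackr2, Ccl9, Ccl20, Ccl27a, Ccr3, Ccr6, Cxcl1, Cxcl2, Cxcl3 and Cxcl10, and none of them is among the 12 genes that passed the test, of which 8 have a window. The core of the interferon element, a pair of GAAA runs set 2 bases apart, was searched on both strands and was found in 3 of the 46 (6.52%), against 3.99% of all, namely Ccl19, Cxcl10 and Cxcl14. Overlapping matches on the 2 strands were counted as 1 gene. A match is a run of letters and not a measured binding site. A gene without a match may have sites outside the window or of another sequence. With 8 windows, the lack of an NF-kB match among the genes that passed decides nothing about NF-kB. Printed here with the match in capitals, each on the strand of its gene, are the NF-kB matches of Cxcl1 and its relatives Cxcl2 and Cxcl3, that of Ccl9, 1 of those of Cxcl10, and the interferon element matches of Cxcl10 and Cxcl14. Of these genes Cxcl1, Ccl9 and Cxcl10 were tested and did not pass, Cxcl2 and Cxcl3 were below the filter, and Cxcl14 is the only gene that passed with a match of either kind.
Cxcl1, NF-kB match, chr5:90891164-90891193, gene on the plus strand: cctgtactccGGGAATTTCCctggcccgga
Cxcl2, NF-kB match, chr5:90903792-90903821, gene on the plus strand: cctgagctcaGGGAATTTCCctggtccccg
Cxcl3, NF-kB match, chr5:90786018-90786047, gene on the plus strand: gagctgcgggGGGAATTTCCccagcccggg
Ccl9, NF-kB match, chr11:83578652-83578681, gene on the minus strand: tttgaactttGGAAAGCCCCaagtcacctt
Cxcl10, NF-kB match, chr5:92348973-92349002, gene on the minus strand: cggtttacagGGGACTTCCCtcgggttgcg
Cxcl10, interferon element match, chr5:92349083-92349112, gene on the minus strand: tcacgctttgGAAAGTGAAActtacctcac
Cxcl14, interferon element match, chr13:56296704-56296733, gene on the minus strand: gtgtccacagGAAACAGAAAagcagcaccc
The 10 letters of the match are the same in Cxcl1, Cxcl2 and Cxcl3 and begin at positions -71, -97 and -73 from the start, respectively. Cxcl1, the only gene of this group abundant enough to test, had a log2 fold change of -0.02. That of Cxcl14 was 1.18. Whether either motif bears on these values was not tested.

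Genes of NF-kB and of cytokines that induce chemokines were described from a list of 32, of which 26 were tested. Of these, 7 were higher and 2 lower, against 12.0% and 8.41% of all genes, with a median log2 fold change of 0.18 beside -0.006 over all genes. Nfkbie, an inhibitor of NF-kB, rose by 0.81 ± 0.21 on the log2 scale (edgeR, adjusted p = 0.0918). Nfkb2, the precursor of a noncanonical NF-kB subunit, rose by 0.46 ± 0.13 (edgeR, adjusted p = 0.109). Tnfaip3, which ends NF-kB signalling by removing ubiquitin, rose by 0.67 ± 0.20 (edgeR, adjusted p = 0.123). Chuk, the kinase IKK alpha, went down from 114 ± 6.72 to 76.7 ± 16.8 CPM (SD, n = 3; log2 fold change -0.57 ± 0.16, edgeR adjusted p = 0.114). All 4 of these genes also passed without AAV8-TBG-Cre replicate 2, when 4 genes of the list were higher and 2 lower, against 8.19% and 5.85% of all genes. Of the inducing cytokines, Il1a, which encodes interleukin 1 alpha, had 63, 62 and 62 counts in AAV8-TBG-GFP livers and 88, 135 and 84 in AAV8-TBG-Cre livers. It rose by 0.52 ± 0.20 (edgeR, adjusted p = 0.2) and was at 0.36 without AAV8-TBG-Cre replicate 2, when it no longer passed. Il1b, at 21, 40 and 22 counts against 23, 40 and 37, did not pass. The others were scarce, with Tnf at 5, 3 and 2 counts in AAV8-TBG-GFP livers and 11, 26 and 7 in AAV8-TBG-Cre livers, and Il6 and Ifng with at most 2 counts in any library.

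Of 43 genes that carry the signal below the receptors (G proteins, arrestins, kinases, PI3 kinase and the Rac pathway), 42 were tested, 12 were higher and 1 was lower, with a median log2 fold change of 0.18. Over all genes tested, 12.0% were higher and 8.41% lower. Their summed CPM of 1493 to 1555 in AAV8-TBG-GFP livers and 1496 to 1606 in AAV8-TBG-Cre livers overlapped. Rgs2, which shortens G protein signals, read 3.39 ± 0.242 CPM in AAV8-TBG-GFP livers and 7.82 ± 2.26 in AAV8-TBG-Cre livers (SD, n = 3; log2 fold change 1.21 ± 0.23, edgeR adjusted p = 0.0593). Fgr, a Src family kinase of myeloid cells, rose by 0.85 ± 0.21 (edgeR, adjusted p = 0.0881). Pik3cd, the leukocyte PI3 kinase catalytic subunit, rose by 0.83 ± 0.22 (edgeR, adjusted p = 0.097). Rasgrp2, an activator of Rap1 in platelets and leukocytes, was the gene that was lower, at 15.0 ± 0.801 against 8.13 ± 2.97 CPM (-0.88 ± 0.24, edgeR adjusted p = 0.101). The rest of the 12 were Gng2, Arrb2, Pik3cg, Pik3r5, Dock2, Elmo1, Rac2, Was and Fermt3, several of which are restricted to blood cells. Without AAV8-TBG-Cre replicate 2, 6 genes of this list were higher and 2, Rasgrp2 and Prex1, lower, against 8.19% and 5.85% of all genes. Without any 1 of the AAV8-TBG-GFP libraries, 8 were higher, when between 1262 and 1469 of the 13738 to 13763 genes tested were.

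Of 15 further genes of the system whose symbols do not follow the rule, all were tested, 4 were higher and none was lower. The shares over all genes tested were 12.0% higher and 8.41% lower. Cd74, a receptor of MIF and chaperone of MHC class II, read 89.7 ± 14.2 CPM in AAV8-TBG-GFP livers and 257 ± 134 in AAV8-TBG-Cre livers (SD, n = 3; log2 fold change 1.52 ± 0.35, edgeR adjusted p = 0.0789). Cmklr1, the chemerin receptor of macrophages and dendritic cells, rose by 1.07 ± 0.29 (edgeR, adjusted p = 0.102). Pitpnm3, described as a receptor of a human CC chemokine, rose by 2.42 ± 0.66 from 2, 5 and 6 counts to 13, 54 and 16 (edgeR, adjusted p = 0.105), and was tested only through its AAV8-TBG-Cre counts. Hspg2, the heparan sulfate proteoglycan perlecan, rose by 0.49 ± 0.19 (edgeR, adjusted p = 0.198). Without AAV8-TBG-Cre replicate 2 Hspg2 was at 0.26 and no longer passed, while Rarres2, the gene of chemerin, went from 0.25 to 0.37 and passed. Adam10 and Adam17, the proteases that shed fractalkine and Cxcl16, had log2 fold changes of 0.28 and 0.25 and did not pass in edgeR.

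Markers of liver cell types were read beside these results. The counts of each marker list stand against 12.0% higher and 8.41% lower over all genes tested. All 6 cholangiocyte markers rose, with a median log2 fold change of 2.45 and a summed level of 49.8 to 103 CPM in AAV8-TBG-GFP livers and 270 to 537 in AAV8-TBG-Cre livers. Most of that sum was Spp1, at 66.8 ± 26.1 against 324 ± 121 CPM (SD, n = 3). Of the 6 markers, Cldn4 had 1, 2 and 1 counts against 31, 194 and 51 and was tested only through its AAV8-TBG-Cre counts. The median of the other 5 was 2.39. Among them, Epcam rose by 2.68 ± 0.50 (edgeR, adjusted p = 0.056) and Sox9 by 1.63 ± 0.27 (edgeR, adjusted p = 0.0454). Of the 8 macrophage and Kupffer cell markers 5 passed as higher and none as lower, with a sum of 172 to 199 CPM against 242 to 327. Marco went the other way in estimate, at 14.2, 3.98 and 10 CPM against 3.91, 5.46 and 7.41 (-0.75 ± 0.44, edgeR adjusted p = 0.38). Clec4f and Timd4, each at 0.29, did not pass either. Of the 5 that passed, Cd5l rose by 0.71 ± 0.12 (edgeR, adjusted p = 0.0471) and Csf1r by 0.68 ± 0.20 (edgeR, adjusted p = 0.124). Of 5 dendritic cell markers tested 2 rose (Itgax and Siglech; sum 7.35 to 8.59 against 10.1 to 28.3 CPM), and Itgax, by 2.16 ± 0.59, was highest in AAV8-TBG-Cre replicate 2 at 472 counts.

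Among neutrophil markers S100a8, S100a9 and Csf3r rose and Ly6g fell. S100a8, at 5, 6 and 5 counts against 24, 28 and 27, entered the test only through its AAV8-TBG-Cre counts, as did Siglech. The neutrophil markers had a sum of 10.8 to 11.2 CPM against 17.0 to 17.8, while Retnlg, Mpo, Camp and Ngp had 0 counts in at least 1 library. Ngp, at 4, 0 and 0 counts against 40, 7 and 37, was too scarce for the full fit. Without AAV8-TBG-Cre replicate 2 it entered through its AAV8-TBG-Cre counts and passed as higher (log2 fold change 4.63), while Mpo (1.00) did not pass. Of 5 monocyte markers tested Itgam and Plac8 rose. The sum of the monocyte list, 2616 to 3055 against 1963 to 2367 CPM, was almost all Fn1. Fn1 alone read 2755 ± 252 against 2107 ± 217 CPM (SD, n = 3; log2 fold change -0.39 ± 0.18) and did not pass. Ly6c2 (0.35) and S100a4 (1.08) had positive estimates that did not pass. The lower sum therefore does not show the level of the other monocyte markers. In the T and NK cell list Cd8a rose and Cd4 fell of 4 tested, with Trac at no count, Ncr1 and Gzma at 0 in at least 1 library, and overlapping sums of 3.25 to 5.61 and 4.33 to 6.41 CPM. The only B cell marker tested, Cd79a, rose, with Ighm at no count and sums of 1.33 to 1.47 against 1.59 to 3.96 CPM. Stellate cell and fibroblast markers gave 2 of 7 higher (Col1a1 and Pdgfrb), with overlapping sums of 180 to 274 and 268 to 539 CPM. Col1a1 alone read 27.6 ± 12.5 against 123 ± 62.4 CPM (SD, n = 3). Estimates were negative for Lrat (-0.25), Reln (-0.10) and Acta2 (-0.37) and positive for Des (0.13) and Dcn (0.38). None of these passed. Endothelial markers gave 1 of 6 lower (Stab2), with overlapping sums of 122 to 188 and 123 to 147 CPM. Platelet markers gave no call of 3 tested, with Gp9 at 0 counts in 1 library and overlapping sums of 3.09 to 3.71 and 3.20 to 3.82 CPM. Hepatocyte markers gave Cps1 higher and Ttr lower of 6, with overlapping sums. Without AAV8-TBG-Cre replicate 2 all 6 cholangiocyte markers, 4 macrophage markers, 3 neutrophil markers and 1 dendritic cell marker still passed as higher, and no T and NK cell marker did. The calls of Adgre1, Plac8, Cd8a, Cd4, Siglech and Ttr were lost in that fit, in which 8.19% of all genes were higher and 5.85% lower. The part of these cell types in the chemokine and receptor values was not tested.

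**Figure D5:**
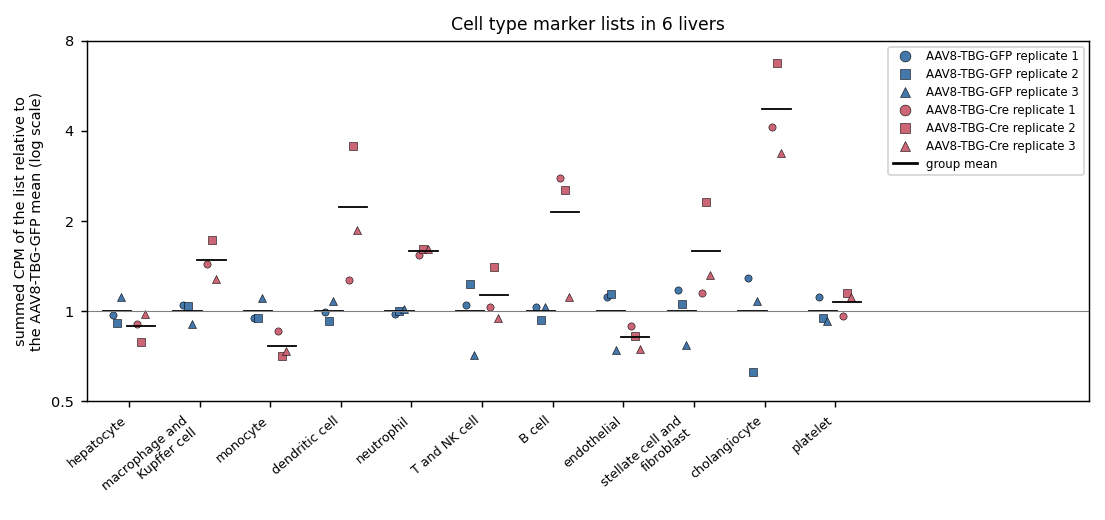
Summed CPM of each cell type marker list in each of the 6 livers, divided by the mean of the 3 AAV8-TBG-GFP livers, on a log axis with bars at the group means. The cholangiocyte, dendritic cell, macrophage, neutrophil and B cell sums of all 3 AAV8-TBG-Cre livers lie above those of the 3 AAV8-TBG-GFP livers. AAV8-TBG-Cre replicate 2 is highest for the cholangiocyte, dendritic cell, macrophage and stellate cell lists, and by less for the T and NK cell and platelet lists. The monocyte sum is almost all Fn1 and the cholangiocyte sum mostly Spp1, so these sums do not show the other markers of their lists.

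Livers with the same form of library name could also be compared, with 1 AAV8-TBG-Cre and 2 AAV8-TBG-GFP livers of the short form and 2 and 1 of the long form. The log2 ratio of CPM was positive in both forms for all 10 genes that passed as higher, with lowest values of 0.06 (Ccl5) among short names and 1.00 (Ccl6) among long names. It was negative in both forms for Ccl25 (-0.66 and -0.39) and Cxcl13 (-1.70 and -2.11). These genes were picked from the same 6 libraries, and the groups of all but Ccl5 did not overlap. Their signs within each form were thus set by that choice and are no further evidence. The share over all genes was not computed. When edgeR was given that name form as a second term, 10 members passed as higher, against 10.6% of all genes, with Ccl5 lost and Ccl9 gained. The 2 that then passed as lower, against 8.82% of all genes, were Cxcl13 and Cxcl12 (log2 fold change -0.44), while Ccl25 (-0.52) did not pass. With 3 livers a group, an exact permutation test of a single gene cannot give a two-sided p under 0.1, so the model across all genes carries these tests.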

How the data were processed

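Bulk RNA-seq libraries of 6 livers, 3 with AAV8-TBG-GFP and 3 with AAV8-TBG-Cre, were grouped by the vector in the labels. The authors deposited, per library, expected counts and FPKM for each transcript and a table of gene FPKM for the series. Per the labels the submitters' processing notes name HISAT2, Bowtie2, RSEM and mm10, without versions, whereas STAR, HTSeq and DESeq2 are given in the methods of the paper. Transcripts under 0.01 FPKM are not listed in the files. Only 45.4% of the transcripts' expected counts were whole, so they were summed per NCBI gene ID and rounded.

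Gene counts were tested in R 4.3.3 with edgeR 4.0.16 (TMM, filterByExpr, glmQLFit and glmQLFTest) on all genes, with vector as the only term, and Benjamini-Hochberg adjustment over 13431 genes. CPM were computed with the TMM factors, and the SE is the log2 fold change divided by the root of F. The fit was tested on simulated data. Alternatives were RLE factors, DESeq2 1.42.0, other filters, a block for replicate number, library name form as covariate, limma 3.58.1 on log2(FPKM + 1) or log2(FPKM + 0.1) with a filter of 0.5 FPKM in 3 libraries or none, and each library left out. The labels' replicate numbers did not pair samples (correlation of deviations 0.045, -0.280 and 0.229). Depth was 20356440 to 21010508 counts per library. Promoter sequences and coordinates are from RefSeq, GRCm38.p6, and were matched by gene.

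The members, gene lists and receptor pairs were chosen with earlier results of these data known. Named with full values were members past the threshold, the 5 ligands and 5 receptors of highest mean FPKM, and their partners. Members below the filter were named by counts, and at most 4 genes a list by smallest p. Some genes are not reported here and enter no count of members or lists.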

Additional observations from a re-analysis of the deposited data

How the results depend on the processing

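Of 61 members, 9 genes (Ccl2, Ccl6, Ccr2, Ccr7, Cx3cl1, Cx3cr1, Cxcl14, Cxcl16 and Cxcr4) passed as higher under each alternative in which they could be tested. For the 12 genes called, 160 alternative fits kept the call and 16 lost it, and no call turned its direction in any alternative. The count of members higher, 10 of 31, was 17 of 58 with no filter on low counts, where scarce genes entered and 1953 of all 18419 genes were higher. With each library left out it was between 9 and 12 of 31 to 37 members. In those fits between 1108 and 2018 of the 13527 to 13763 genes tested were higher. The count lower, 2, was 1 when at least 10 counts in every library were asked (Cxcl13 could then not be tested). It was 1 in limma on log2(FPKM + 1), 1 on log2(FPKM + 0.1) and 1 without the FPKM filter, with between 364 and 376 of all genes lower. With each library left out it was between 0 and 3, with between 735 and 1712 of all genes lower. The count by adjusted p, 0, was 9 of 46 in DESeq2, against 7.44% of all genes, and between 0 and 3 with each library left out. The 3, of 35 tested, were Cx3cr1, Cxcl16 and Cxcr4 without AAV8-TBG-Cre replicate 1, when 6.78% of all genes passed. The count of signalling genes higher, 12 of 42, lay between 6 and 18 with each library left out. It was lowest without AAV8-TBG-Cre replicate 2, when 1108 of all genes were higher, and highest without AAV8-TBG-Cre replicate 1, when 2018 were. With a replicate block, 11 members were higher and 2 lower, against 1504 and 1093 of all 13431 genes. In that fit 0 members passed by adjusted p, 10 signalling genes were higher, and the genes past an adjusted p under 0.05 fell from 125 to 7. Same-numbered samples did not deviate together, so the numbers are no pairing. The counts of marker and pathway lists without AAV8-TBG-Cre replicate 2 were added after the data were seen. Depth limits the 27 members below the filter. The causes of these changes were not tested.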
